A study of Mus musculus with 12 samples.

Results

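Secretory cells of the conducting airway were followed through 8 of their marker genes in lungs of newborn mice given a gold drug and high oxygen. The genes, picked by name among the 23478 of the count table, were Scgb1a1, Scgb3a1, Scgb3a2, Muc5b, Reg3g, Bpifa1, Bpifb1 and Cyp2f2, and all 8 passed the filter on low counts. C57/Bl6 pups were injected intraperitoneally on day 0 with 25 mg/kg aurothioglucose (ATG), a gold(I) thioglucose salt known to block thioredoxin reductase, or with saline, and then breathed more than 95% oxygen (hyperoxia) or room air, with 72 h given for the exposure. Lungs were taken after the lavage fluid was removed, and RNA-seq was done on 3 lungs per group. The groups were ATG hyperoxia, saline hyperoxia, ATG room air and saline room air, with no transgene named for any of them. The labels do not say which litter a lung came from or which libraries share a day, so p-values measure the spread between these samples, part of which may be technical.

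Club cells are the domed secretory cells of the bronchioles and upper airways, and they both secrete protein onto the airway surface and break down foreign chemicals with cytochrome P450 enzymes. Mucous (goblet) cells make gel-forming mucins, and in mouse airways MUC5B also comes from club-like secretory cells. Secretory cells of the large airways carry Scgb3a1, Muc5b and Reg3g, whereas Scgb1a1 and Cyp2f2 extend down to the terminal bronchioles, so a piece of lung with more large airway holds more of the large-airway transcripts. In bulk RNA, fewer cells of a type and less RNA per cell cannot be told apart.

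RefSeq promoter windows of GRCm38.p6 run from 250 bases before an annotated transcript start to 50 after it. These starts can differ from the gene positions given below. Windows of 5 of the 8 genes were searched: Scgb3a1, Reg3g, Cyp2f2, Bpifa1 and Bpifb1. Those printed here are Scgb3a1 and Reg3g, whose levels moved together between libraries, Cyp2f2, whose level was steady, and Bpifb1, which was lower in hyperoxia after saline. Capitals mark every match, on either strand, to NKX2 core CAAGTG, forkhead TGTTTNC, C/EBP TTGCNNAA, STAT TTCNNNGAA or TATA box TATAAA, a set chosen with these sequences in view.
Scgb3a1 (chr11:49663345-49663644, plus strand): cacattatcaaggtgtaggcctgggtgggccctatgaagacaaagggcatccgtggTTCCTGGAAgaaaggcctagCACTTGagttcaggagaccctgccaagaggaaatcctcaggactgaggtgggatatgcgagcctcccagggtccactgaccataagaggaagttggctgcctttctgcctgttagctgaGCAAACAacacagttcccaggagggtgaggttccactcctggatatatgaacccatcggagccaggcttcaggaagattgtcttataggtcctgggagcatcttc
Reg3g (chr6:78468825-78469124, minus strand): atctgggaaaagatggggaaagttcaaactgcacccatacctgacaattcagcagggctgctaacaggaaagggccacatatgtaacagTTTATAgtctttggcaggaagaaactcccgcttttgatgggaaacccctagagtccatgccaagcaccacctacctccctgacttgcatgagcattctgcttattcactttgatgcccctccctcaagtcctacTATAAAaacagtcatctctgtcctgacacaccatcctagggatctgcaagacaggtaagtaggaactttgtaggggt
Cyp2f2 (chr7:27119705-27120004, plus strand): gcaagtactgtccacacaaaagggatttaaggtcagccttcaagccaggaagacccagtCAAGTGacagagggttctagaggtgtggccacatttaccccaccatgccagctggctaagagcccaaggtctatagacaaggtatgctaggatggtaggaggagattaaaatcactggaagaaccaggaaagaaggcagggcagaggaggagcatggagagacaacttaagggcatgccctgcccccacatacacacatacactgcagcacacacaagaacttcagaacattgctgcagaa
Bpifb1 (chr2:154190568-154190867, plus strand): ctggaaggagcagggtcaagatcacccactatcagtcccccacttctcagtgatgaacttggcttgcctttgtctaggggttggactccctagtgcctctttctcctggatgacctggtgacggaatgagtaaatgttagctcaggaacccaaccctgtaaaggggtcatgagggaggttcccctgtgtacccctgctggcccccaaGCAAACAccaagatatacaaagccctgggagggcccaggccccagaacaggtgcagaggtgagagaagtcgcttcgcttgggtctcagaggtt
The Scgb3a1 window held a STAT match at -194, an NKX2 match at -174 and a forkhead match at -55, counted in bases from the start. The Reg3g window held TATA matches at -161 and -27, the Cyp2f2 window an NKX2 match at -191 and this Bpifb1 window a forkhead match at -43. A second Bpifb1 window (chr2:154200130-154200429), set by a transcript start inside the gene, held a STAT match at -146 from that start. The Bpifa1 window held a TATA match at -29. Of all 32851 promoter windows, 13.6% held the NKX2 letters, 20.5% the forkhead letters, 10.8% the C/EBP letters, 8.30% the STAT letters and 13.6% the TATA letters. No C/EBP match was found in the windows of these 5 genes, which says only that these letters are not there.

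Total counts per library were 18009965 to 20486735 in ATG hyperoxia, 16490223 to 19267023 in saline hyperoxia, 14589812 to 17368904 in ATG room air and 14331749 to 15916703 in saline room air, and the 8 genes took 1.07% to 2.03% of a library. Levels are CPM, counts scaled to a common library size, after TMM normalization. ATG hyperoxia library 2 and saline hyperoxia library 2 stood apart through 7 heart muscle markers, whose summed level was 6624 and 2940 CPM there, against 387 to 913 CPM in the remaining 10 libraries. Saline hyperoxia library 1 was high in 6 skeletal muscle markers (354 CPM, against 20.5 to 62.0 elsewhere), and saline hyperoxia library 2 also in 6 thymocyte markers (69.1 CPM, against 2.64 to 29.8 elsewhere). Of the club cell genes among the 8, Scgb1a1 ranked 2 and Cyp2f2 ranked 32 of all genes by mean level. As members of the group, they describe its level and do not test its label. For goblet cells the levels were mixed, so that part of the label is less sure. The goblet cell regulators Spdef and Foxa3 stayed at no more than 1.92 and 0.816 CPM in any library, and the goblet mucin gene Muc5ac ran from 2.91 to 17.0 CPM. Among other genes listed below as mucous, Agr2 ran from 1.44 to 11.2 CPM and Creb3l1 from 71.2 to 100.5 CPM. Muc5b, one of the 8, reached 1311 CPM.

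The genes lie on 6 chromosomes of GRCm38 and all are protein-coding in GENCODE vM21, each position covering exons and introns. They are Scgb1a1 at chr19:9083636-9087958 on the minus strand, Scgb3a1 at chr11:49663610-49665118 on the plus strand, Scgb3a2 at chr18:43764289-43767399 on the plus strand and Muc5b at chr7:141839070-141873084 on the plus strand. Reg3g lies at chr6:78466269-78468872 on the minus strand, Bpifa1 at chr2:154142880-154149219, Bpifb1 at chr2:154190818-154220369 and Cyp2f2 at chr7:27119909-27133660, these last on the plus strand. Cyp2f2 overlaps the gene model Gm15883 on the opposite strand, and because no source used here gives the strand setting of the counting, reads of these genes cannot be told apart.

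Per length, the order of levels was led by Scgb1a1. Its mean over the 12 libraries was 21903 ± 5483 CPM per kilobase of exon (SD, n = 12). Scgb3a2 (1007 ± 248), Cyp2f2 (827 ± 93.1) and Scgb3a1 (619 ± 365 CPM per kilobase) came next, and the Cyp2f2 mean lay within 1 SD of each neighbour's mean, by the SD of that neighbour. Reg3g averaged 184 ± 120, Muc5b 29.8 ± 23.2, Bpifb1 13.6 ± 9.32 and Bpifa1 3.72 ± 1.45 CPM per kilobase, and the SDs overlapped for Scgb3a1 with Reg3g, for Muc5b with Bpifb1 and for Bpifb1 with Bpifa1.

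Scgb1a1, the secretoglobin that is the main secreted protein of club cells, had 8674, 8239 and 9221 CPM in ATG hyperoxia, 8621, 8842 and 8450 in saline hyperoxia, 11289, 16648 and 9578 in ATG room air and 13898, 12129 and 9518 in saline room air. All 6 hyperoxia libraries (8239 to 9221 CPM) lay below all 6 room air libraries (9518 to 16648 CPM), a separation that 11% of all genes tested showed. Averaged over both injections, Scgb1a1 was lower in hyperoxia by a log2 fold change of -0.49 (SE 0.12, adjusted p = 0.00698, edgeR quasi-likelihood test). Within one injection it did not pass the threshold of 0.05, with -0.52 after ATG (95% interval -0.87 to -0.17, adjusted p = 0.0520) and -0.46 after saline (-0.80 to -0.11, adjusted p = 0.100). The libraries also differed in spread, since the SD was 492 CPM after ATG and 196 CPM after saline in hyperoxia, against 3688 CPM after ATG and 2203 CPM after saline in room air. The summed level of 8 smooth muscle markers, none at 0, was also lower in the hyperoxia groups, with 1179 to 1322 CPM in ATG hyperoxia, 1141 to 1206 in saline hyperoxia, 1595 to 1843 in ATG room air and 1527 to 1646 in saline room air. Within groups, deviations of Scgb1a1 and of the mean log2 level of these markers had r = -0.57 over the 12 libraries. This correlation did not pass (Spearman's rho -0.52, adjusted exact permutation p of r = 0.188). The part of these markers in the Scgb1a1 difference was not tested.

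Cyp2f2, the club cell cytochrome P450 that activates naphthalene in mouse, had 1626, 1879 and 1585 CPM in ATG hyperoxia, 1637, 1592 and 1538 in saline hyperoxia, 1367, 1728 and 1292 in ATG room air and 1570, 1378 and 1336 in saline room air. Most hyperoxia libraries were above most room air libraries, but the groups overlapped. Its log2 fold change in hyperoxia was 0.21 after ATG (SE 0.11, adjusted p = 0.231), 0.15 after saline (SE 0.11, adjusted p = 0.430) and 0.18 averaged (adjusted p = 0.0977), none of which passed. Without ATG room air library 2 the value after ATG was 0.37 (adjusted p = 0.0156). As a share of the Scgb1a1 count in the same library, the Cyp2f2 count was 17.2% to 22.8% over the hyperoxia libraries and 10.4% to 14.0% over the room air libraries, with no overlap. Scgb1a1, the denominator, by itself separated the hyperoxia from the room air libraries, which the Cyp2f2 level did not. How many other genes separate by this ratio was not counted. Cyp2f2 was also the steadiest of the 8, with its highest library at 1.45 times its lowest.

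**Figure D1:**
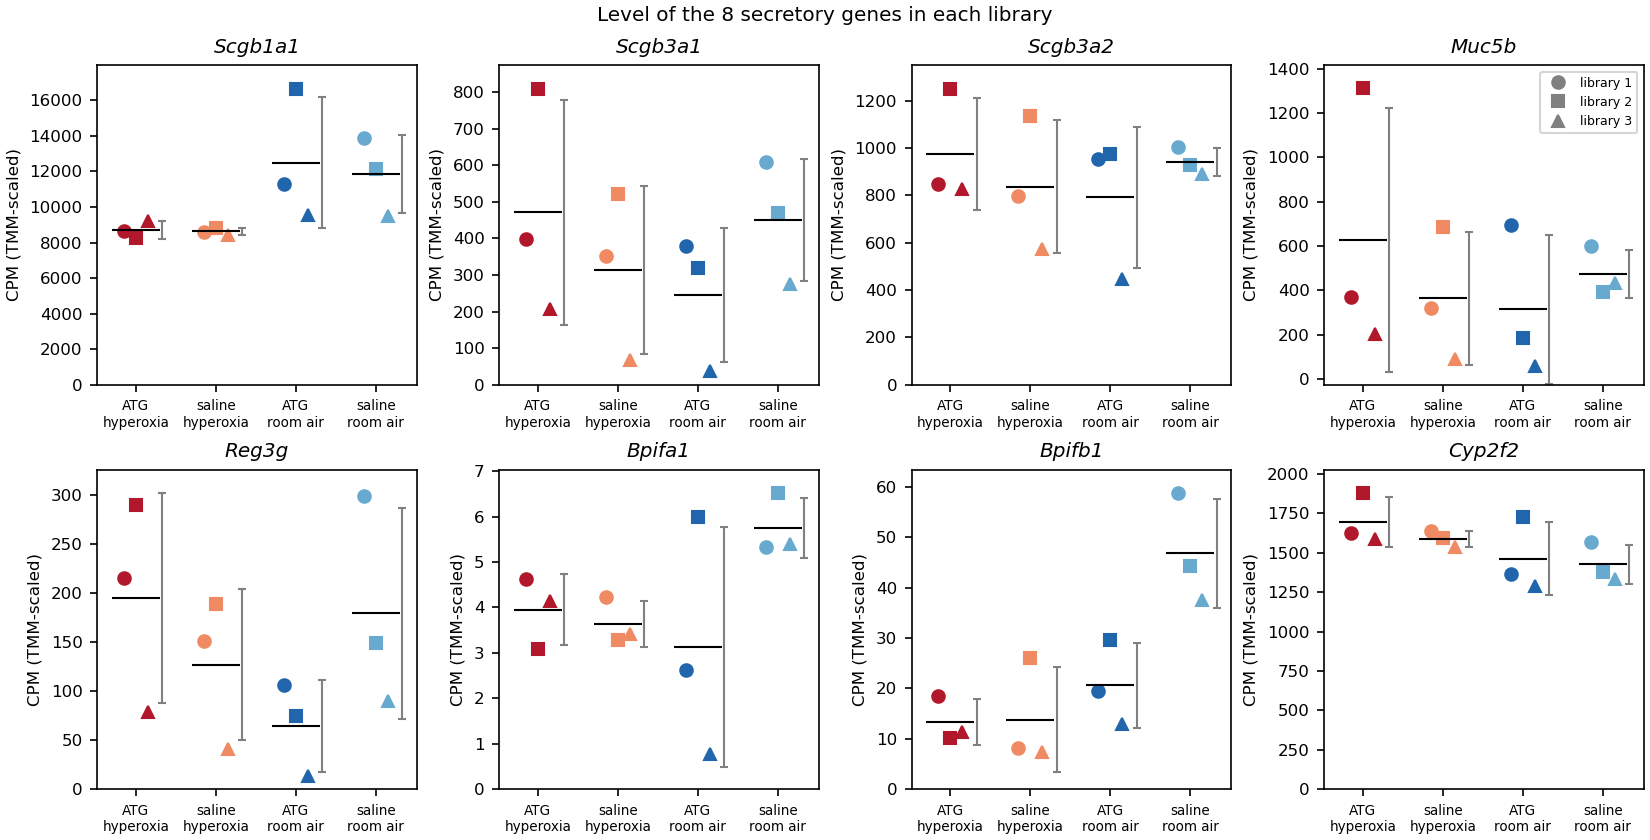
Level of each of the 8 genes in CPM (linear axis) in the 12 libraries, by group from ATG hyperoxia to saline room air; points are libraries, and bars are group means with SD (n = 3). Scgb1a1 lies lower in all 6 hyperoxia libraries (8239 to 9221 CPM) than in all 6 room air libraries, while Scgb3a1, Muc5b and Reg3g spread more within groups than between them.

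Scgb3a2, a secretoglobin of club cells found along the airway, had 849, 1249 and 828 CPM in ATG hyperoxia, 798, 1135 and 575 in saline hyperoxia, 953, 974 and 447 in ATG room air and 1004, 927 and 891 in saline room air. The groups overlapped, with the extremes in ATG hyperoxia library 2 and ATG room air library 3. Its log2 fold change in hyperoxia was 0.30 after ATG (SE 0.27, adjusted p = 0.528) and -0.17 after saline (SE 0.27, adjusted p = 0.762).

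Scgb3a1, the secretoglobin of large-airway secretory cells, had 398, 809 and 206 CPM in ATG hyperoxia, 351, 522 and 67.2 in saline hyperoxia, 379, 320 and 37.0 in ATG room air and 608, 469 and 276 in saline room air. The highest library held 21.9 times the level of the lowest, and every group overlapped the others. The hyperoxia log2 fold change was 0.94 after ATG (SE 0.73, adjusted p = 0.460) and -0.52 after saline (SE 0.72, adjusted p = 0.721). Set against the Scgb1a1 count of the same library, the Scgb3a1 count ran from 0.386% in ATG room air library 3 to 9.82% in ATG hyperoxia library 2.

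Muc5b, the gel-forming mucin that healthy airways depend on for clearance, had 368, 1311 and 203 CPM in ATG hyperoxia, 321, 685 and 87.8 in saline hyperoxia, 696, 186 and 58.9 in ATG room air and 599, 393 and 435 in saline room air. Its lowest and highest libraries differed 22.3 times, and the groups overlapped. The hyperoxia log2 fold change was 1.00 after ATG (SE 0.80, adjusted p = 0.481) and -0.38 after saline (SE 0.80, adjusted p = 0.824). Without both libraries rich in heart markers the value after ATG was -0.12, the opposite sign.

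Reg3g, a secreted C-type lectin that kills Gram-positive bacteria, had 216, 290 and 79.1 CPM in ATG hyperoxia, 151, 189 and 41.0 in saline hyperoxia, 106, 74.2 and 13.7 in ATG room air and 299, 149 and 90.0 in saline room air. ATG room air was the lowest group by mean (64.6 ± 46.8 CPM), yet its libraries overlapped those of each other group. The hyperoxia log2 fold change was 1.60 after ATG (SE 0.67, adjusted p = 0.146) and -0.50 after saline (SE 0.65, adjusted p = 0.704). With the mean of ciliated markers in the fit the value after ATG was 1.48 and passed (adjusted p = 0.0303). The difference between those changes, the interaction, was 2.09 (SE 0.93, unadjusted p = 0.0398, adjusted p = 1.00).

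Bpifb1 and Bpifa1 encode secreted lipid-binding proteins of the airway lining, known for antimicrobial and surface-active roles. Bpifb1 had 18.4, 10.0 and 11.3 CPM in ATG hyperoxia, 8.08, 25.9 and 7.37 in saline hyperoxia, 19.4, 29.6 and 12.9 in ATG room air and 58.7, 44.2 and 37.4 in saline room air. All 3 saline room air libraries lay above the other 9, a pattern picked after the values were seen. The share of all genes that show it was not counted. After saline, Bpifb1 was lower in hyperoxia by a log2 fold change of -1.76 (SE 0.42, adjusted p = 0.0166), and averaged over both injections it was lower by -1.20 (SE 0.30, adjusted p = 0.00895). After ATG the change was -0.64 (SE 0.42, adjusted p = 0.376), and the interaction of 1.13 did not pass (SE 0.59, adjusted p = 1.00). The call after saline ended without saline room air library 1 (-1.56, adjusted p = 0.0658), saline hyperoxia library 1, the one high in skeletal muscle markers (-1.49, adjusted p = 0.0658), or saline hyperoxia library 3 (-1.47, adjusted p = 0.0727), whereas without saline hyperoxia library 2, the high one of its group, it was -2.58 (adjusted p = 0.000608). By Xist and Y-linked genes all 3 saline room air libraries were male. Saline hyperoxia and ATG room air each held 1 male and 2 females, and ATG hyperoxia 2 males and 1 female. With sex in the fit the Bpifb1 change after saline was -1.68 (adjusted p = 0.0770).

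Bpifa1 was the least abundant of the 8. It had 4.63, 3.08 and 4.14 CPM in ATG hyperoxia, 4.22, 3.29 and 3.41 in saline hyperoxia, 2.63, 5.99 and 0.779 in ATG room air and 5.34, 6.52 and 5.40 in saline room air. The saline hyperoxia libraries lay below the saline room air libraries without overlap, but the log2 fold change of -0.66 did not pass (SE 0.46, adjusted p = 0.438). After ATG the change was 0.34 (SE 0.47, adjusted p = 0.705).

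Counted together, 1 of the 8 genes was called lower in hyperoxia after saline and 0 were called higher, where 9.19% of the 15761 genes tested were called in either direction, 4.7% higher and 4.5% lower. After ATG 0 of the 8 were called in hyperoxia, against 11.7% of all genes in either direction, 5.41% higher and 6.25% lower. In the average over both injections 2 of 8 were called, both lower, against 22.4% of all genes in either direction, 11% higher and 11.3% lower. Libraries of the groups did not overlap for 3 of the 8 genes after saline (Scgb1a1, Bpifa1 and Bpifb1), against 29.5% of all genes, and for 1 of 8 after ATG (Scgb1a1), against 27.6%. The median log2 fold change of the 8 was 0.32 after ATG and -0.48 after saline, with 0.00 over all genes in both. At an unadjusted p under 0.05 edgeR's test took 2 of 8 after ATG and 2 of 8 after saline. Of all genes it took 25.1% and 22.7% in that order. DESeq2 and limma-voom each called 0 after ATG and 1 after saline by adjusted p. Before adjustment they had 2 and 3 genes under 0.05 after ATG, against 25.3% and 25.2% of all genes.

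**Figure D2:**
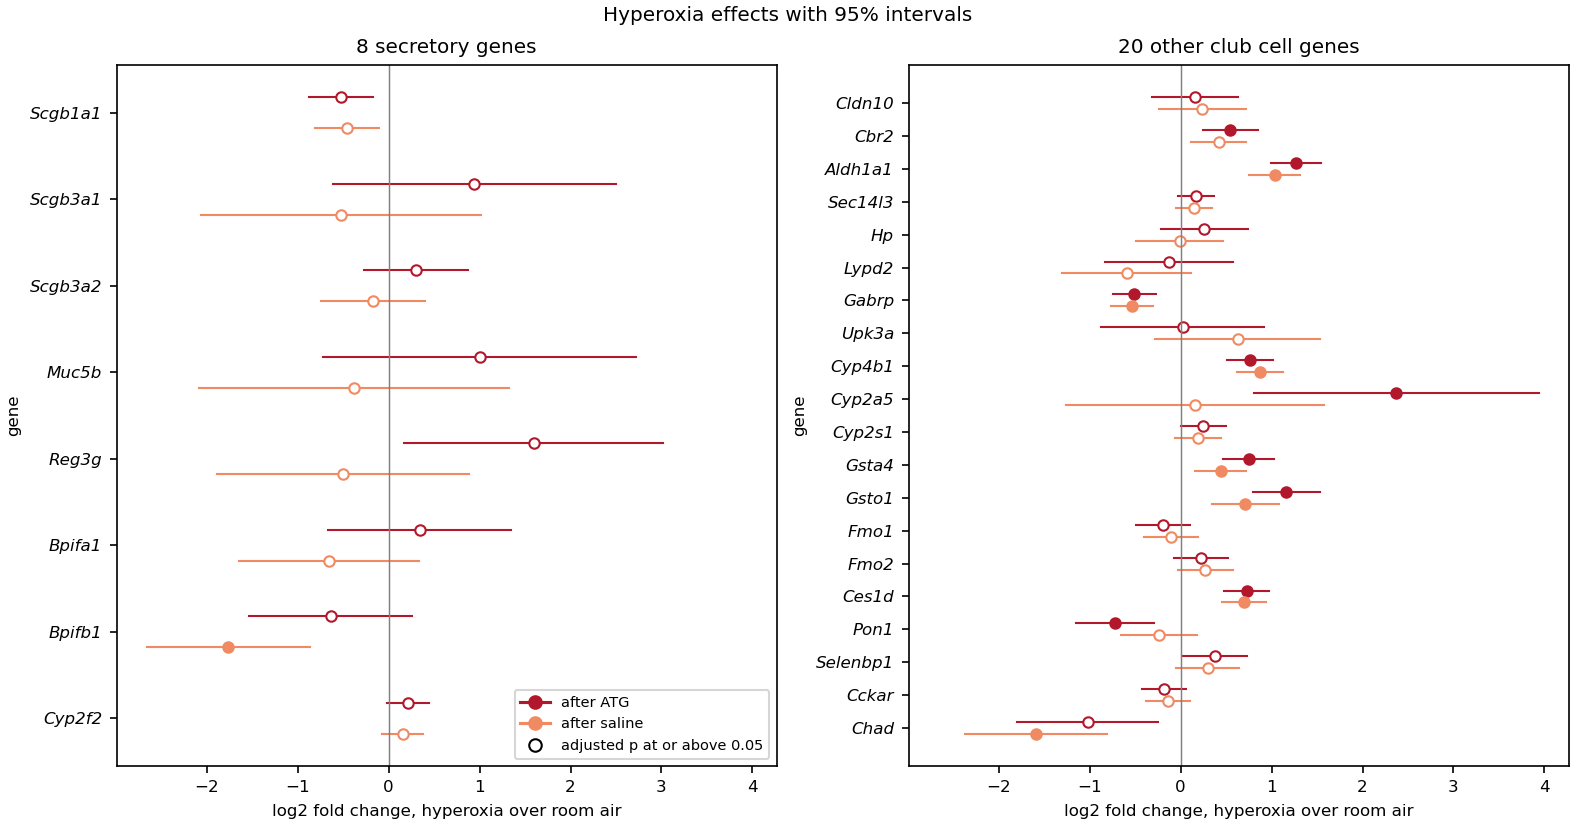
Fitted log2 fold change of hyperoxia over room air with its 95% interval, after ATG and after saline, for the 8 genes (left) and for 20 other club cell genes (right); filled points had an adjusted p under 0.05. At left Scgb1a1 and Cyp2f2 have narrow intervals, those of Muc5b, Scgb3a1 and Reg3g are wide, and the Bpifb1 change after saline (-1.76) is the one filled point.

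ATG against saline gave 0 called genes of the 8 in either oxygen condition. In hyperoxia 0.00634% of all genes were called by edgeR's test, and in room air and for the interaction 0% were. By DESeq2 and by limma-voom 0 of the 8 were called as well. Before adjustment, edgeR's test put 0 of 8 under 0.05 in hyperoxia and 2 of 8 in room air, DESeq2 0 and 1, and limma-voom 0 and 3. Of all genes, edgeR's test put 5.69% under 0.05 in hyperoxia and 6.02% in room air, DESeq2 5.83% and 5.95%, and limma-voom 6.00% and 5.62%. The largest differences of ATG from saline in room air were those of Reg3g, at a log2 fold change of -1.48 (SE 0.67, unadjusted p = 0.0428, adjusted p = 0.820), and Bpifb1, at -1.18 (SE 0.41, unadjusted p = 0.0118, adjusted p = 0.818). Bpifb1 was the 1 gene of the 8 whose ATG room air libraries did not overlap those of saline room air, against 12% of all genes, and in hyperoxia there was none, against 11.1%. The intervals set different limits on the genes: in hyperoxia the drug difference of Scgb1a1 was 0.012 (95% interval -0.34 to 0.36) and that of Cyp2f2 0.095 (-0.13 to 0.32), while that of Muc5b was 0.78 with an interval of -0.93 to 2.49. Hyperoxia after saline and ATG in room air share the saline room air libraries, in which Bpifb1 and Bpifa1 were highest by mean. Those libraries were all male, against 1 male and 2 females in saline hyperoxia and in ATG room air.

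The 8 genes split by how far lungs of one group differed. The within-group SD of log2 CPM was 1.36 for Muc5b, 1.35 for Scgb3a1 and 1.18 for Reg3g, above that of 99.8%, 99.8% and 99.6% of the 11973 genes with a mean of at least 5 CPM. It was 0.72 for Bpifa1, 0.65 for Bpifb1 and 0.44 for Scgb3a2. Scgb1a1 had 0.25 and Cyp2f2 0.15, against a median of 0.20 over all genes tested. ATG room air library 3 was the lowest of the 12 for 6 of the 8 genes, with Scgb1a1 and Bpifb1 as the exceptions, and ATG hyperoxia library 2 was the highest for Scgb3a1, Scgb3a2, Muc5b and Cyp2f2. The shares of all genes that were lowest or highest in these libraries were not counted, so these counts only describe the 8. The library numbered 3 was the lowest of its group in all 4 groups for Scgb3a1, Scgb3a2, Reg3g and Cyp2f2, which 1.72% of all genes tested showed, a pattern picked after the values were seen. The labels do not say what a number stands for.

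**Figure D3:**
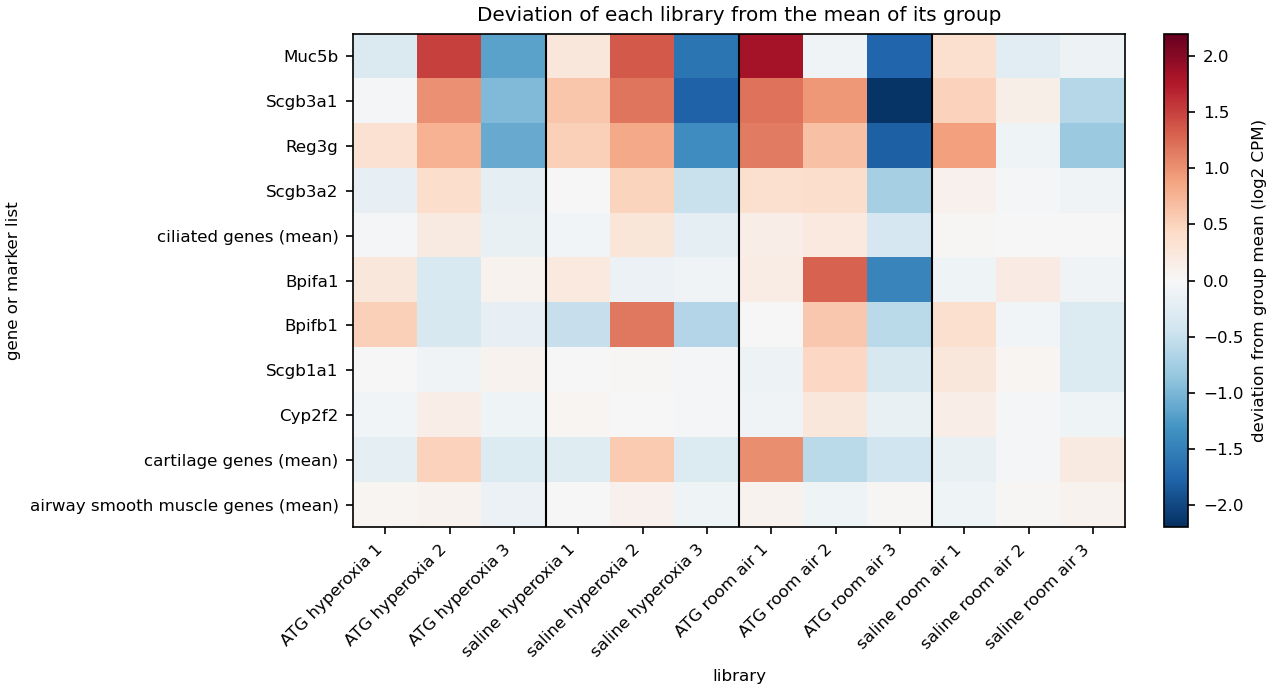
Deviation of log2 CPM from the group mean for the 8 genes, and of the mean log2 CPM of ciliated, cartilage and airway smooth muscle markers, in each of the 12 libraries (colour, red high and blue low). In ATG room air library 3 and saline hyperoxia library 3, Scgb3a1, Muc5b and Reg3g are low together, and in ATG hyperoxia library 2 they are high together, whereas Cyp2f2 stays near 0.

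Scgb3a1, Scgb3a2, Muc5b and Reg3g moved together between lungs of the same group. Deviations from the group means were correlated over the 12 libraries for 28 pairs of the 8 genes and 24 pairs of a gene with a marker list, with exact two-sided permutation of libraries within groups, every arrangement counted (smallest p possible 0.000772) and Benjamini-Hochberg adjustment over the 52 pairs. Each p given with a pair is that of Pearson's r. Of the 28 gene pairs 6 passed, and these were all pairs among those 4 genes. Pearson's r was 0.97 for Scgb3a1 with Reg3g (Spearman's rho 0.92, adjusted exact permutation p = 0.0160), 0.95 for Scgb3a1 with Scgb3a2 (rho 0.94, adjusted exact permutation p = 0.0160) and 0.91 for Scgb3a1 with Muc5b (rho 0.94, adjusted exact permutation p = 0.0160). It was 0.90 for Scgb3a2 with Muc5b (rho 0.88, adjusted exact permutation p = 0.0312), 0.89 for Muc5b with Reg3g (rho 0.94, adjusted exact permutation p = 0.0267) and 0.88 for Scgb3a2 with Reg3g (rho 0.87, adjusted exact permutation p = 0.0160). Without the 2 libraries farthest from the median on the first gene of a pair, r of these 6 pairs was 0.82 to 0.94. The remaining 22 gene pairs had adjusted values above 0.05. The lowest r was 0.13, for Scgb1a1 with Muc5b (unadjusted exact permutation p = 0.871). The highest was 0.77, for Scgb1a1 with Bpifa1 (adjusted exact permutation p = 0.314; 0.10 without the 2 farthest libraries) and with Cyp2f2 (0.287; 0.43). Scgb1a1 with Bpifb1 had r = 0.55 (adjusted exact permutation p = 0.0682).

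The same libraries were high or low for ciliated cell markers. The mean log2 level of 12 ciliated markers, such as the ciliary regulator Foxj1, had r = 0.99 with Scgb3a2 (rho 0.95, adjusted exact permutation p = 0.0160; 0.97 without the 2 farthest libraries), 0.92 with Scgb3a1 (rho 0.86, adjusted exact permutation p = 0.0301) and 0.86 with Reg3g (rho 0.82, adjusted exact permutation p = 0.0287; 0.69 without the 2 farthest libraries). By Spearman's rho 5 of the 9 pairs that passed by Pearson's r did so. The adjusted exact permutation p of rho was 0.0502 for Scgb3a1 with Scgb3a2 and for Reg3g with the ciliated markers, and 0.0642 for Scgb3a2 with Muc5b and for Scgb3a1 with the ciliated markers. For Muc5b with the ciliated markers Pearson's r was 0.87, which did not pass (adjusted exact permutation p = 0.0985). The summed level of these markers, none of which was at 0 in any library, ran over 460 to 592 CPM in ATG hyperoxia, 461 to 583 in saline hyperoxia, 415 to 624 in ATG room air and 572 to 624 in saline room air, lowest in ATG room air library 3. In each contrast between groups 0 of the 12 ciliated markers passed by edgeR's test, DESeq2 or limma-voom, with at most 1 under an unadjusted p of 0.05. No pair with cartilage or smooth muscle markers passed: Muc5b with the 4 cartilage markers tested had r = 0.82 (adjusted exact permutation p = 0.184). The summed cartilage level of 103 to 148 CPM over the 12 libraries covers 11 markers, of which up to 5 were at 0 in a library and Ucma was at 0 in 11 of 12. Nearly all of it came from Hapln1 (53.0 to 116 CPM) and Chad (11.7 to 75.2 CPM), which is also listed here as a club cell gene. Each other cartilage marker stayed at 7.83 CPM or less. Without both libraries rich in heart markers the 9 pairs that passed had r from 0.83 to 0.98, but with fewer arrangements (smallest p possible 0.00694) 0 of the 52 pairs passed after adjustment. The part of the airway share of each lung in these correlations was not tested.

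**Figure D4:**
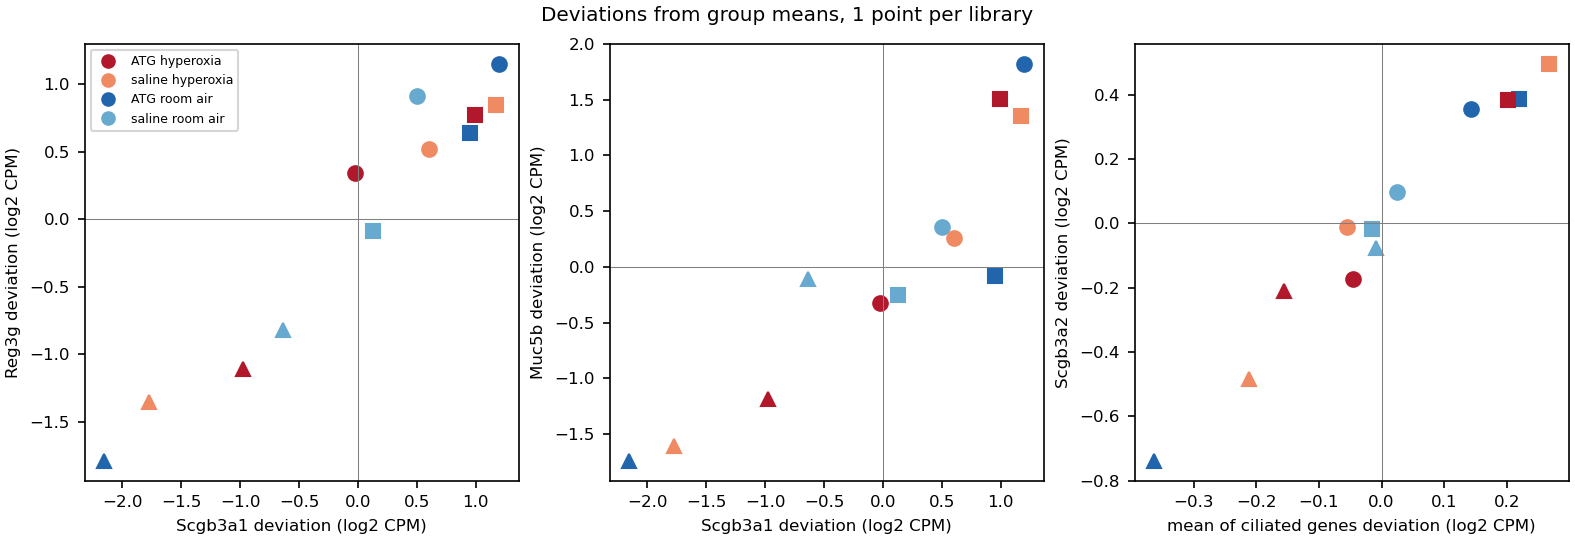
Within-group deviations of log2 CPM plotted against each other for Reg3g and Muc5b against Scgb3a1 and for Scgb3a2 against the ciliated marker mean, 1 point per library, 1 colour per group and 1 shape per library number as in the plot of levels. Scgb3a1 with Reg3g (r = 0.97) and Scgb3a2 with the ciliated markers (r = 0.99) lie close to a line, and Muc5b scatters more around Scgb3a1 (r = 0.91).

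The genes most like each of the 8 over all 12 libraries were sought among 11447 genes that averaged 5 CPM or more and had no provisional symbol (such as Gm or Rik names), by Pearson's r of log2 CPM, as a description that includes differences between groups. Scgb3a1 was most like Scgb3a2 (0.96), Reg3g (0.95) and Muc5b (0.93), and the 3 genes most like Muc5b were Scgb3a1, Scgb3a2 and Reg3g (0.89). Scgb3a2 was also like Nenf (0.93), and Reg3g like Nudt3 (0.93) and Ttc39a (0.89). Those most like Scgb1a1 were Pitpna (0.92), Pllp (0.92) and Mrpl36 (0.91). For Cyp2f2 they were Icosl (0.94), Plekhb1 (0.93) and Rpl19 (0.93). Bpifb1 was most like Retnla (0.92) and Wbp1 (0.91), and Bpifa1 like Supt20 (0.91), Fam154b (0.90) and Tmem212 (0.87). Among these neighbours, r with Fam154b dropped to 0.36 without the 2 libraries in which Bpifa1 was farthest from its median.

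Other club cell genes changed in both directions in hyperoxia. Of 20 tested, 7 rose and 2 fell after ATG, and 5 rose and 2 fell after saline, which is 45% and 35% called against 11.7% and 9.19% of all genes in the same contrasts. This list and the mucous, defence and regulator lists below were chosen with earlier results of these data known. Their shares called are therefore a description and not a test against all genes. The list had median log2 fold changes of 0.24 after ATG and 0.22 after saline against 0.00 over all genes. Aldh1a1, a retinaldehyde dehydrogenase, averaged 851 ± 127 CPM in hyperoxia against 354 ± 63.2 CPM in room air after ATG, and 762 ± 27.0 CPM in hyperoxia against 373 ± 39.6 CPM in room air after saline (SD, n = 3 each), a log2 fold change of 1.27 after ATG and 1.03 after saline. Cyp4b1, a lung cytochrome P450, rose by 0.76 after ATG and by 0.87 after saline, and Ces1d, a carboxylesterase, by 0.73 and 0.70 in that order. Gsto1 and Gsta4, glutathione transferases, rose by 1.16 and 0.75 after ATG and by 0.71 and 0.44 after saline. Cbr2, the carbonyl reductase typical of mouse club cells, rose by 0.55 after ATG (adjusted p = 0.0198), and after saline had 0.42 (adjusted p = 0.0792). Cyp2a5 passed after ATG at 2.37 (adjusted p = 0.0491) at low levels, with ATG hyperoxia libraries at 2.17 to 3.31 CPM and ATG room air libraries at 0.180 to 0.986. Gabrp, a GABA receptor subunit, fell by 0.51 after ATG and by 0.54 after saline. Chad, which is also a cartilage marker, fell by 1.59 after saline and had -1.02 after ATG (adjusted p = 0.0838), and Pon1 fell by 0.72 after ATG. Of these calls, over 21 alternatives, that of Cyp2a5 after ATG ended in 11 (highest adjusted p 0.167), that of Gsta4 after saline in 9 (0.201), that of Pon1 after ATG in 8 (0.115) and that of Cbr2 after ATG in 5 (0.0880).

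The summed level of 6 markers of any epithelium was also higher in each hyperoxia group, at 871 to 1040 CPM in ATG hyperoxia, 813 to 920 in saline hyperoxia, 726 to 782 in ATG room air and 655 to 703 in saline room air. None of those 6 was at 0, and 1 of the 6, the adhesion gene Cdh1, passed after each injection (0.34 after ATG and 0.44 after saline). In the average over both injections 5 of the 6 passed, all higher. Their part in the rise of the club cell genes was not tested.

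The mucin genes Muc4 and Muc20 were lower in hyperoxia after both injections, and Muc5ac after saline. Of 20 mucous cell genes listed, 15 were tested, and 2 rose and 2 fell after ATG, while 1 rose and 4 fell after saline, which is 26.7% and 33.3% called against 11.7% and 9.19% of all genes. The median log2 fold change was -0.30 after ATG and -1.41 after saline. Some of the 15 genes were near the floor, which makes their fold changes and this median uncertain. Over the 12 libraries Spdef ran from 0 to 1.92 CPM, and Ern2 and Itln1 each from 0 to 1.30 CPM. Muc4, a membrane-bound mucin, had 67.2, 67.2 and 78.6 CPM in ATG hyperoxia, 63.2, 105 and 84.1 in saline hyperoxia, 214, 152 and 144 in ATG room air and 200, 193 and 179 in saline room air. All 6 hyperoxia libraries lay below all 6 room air libraries, and 11% of all genes tested showed a separation in either direction. The log2 fold change of Muc4 was -1.26 after ATG (adjusted p = 0.000369) and -1.18 after saline (adjusted p = 0.000671). Muc20, another membrane mucin, fell by 1.18 after ATG and by 1.50 after saline. Muc5ac, the goblet cell mucin, fell by 1.54 after saline (adjusted p = 0.0239) and had -0.85 after ATG (adjusted p = 0.200). Itln1, an intelectin, was at 0 in all 3 saline hyperoxia libraries and at 0.496 to 1.30 CPM in saline room air. Slc12a2, a chloride cotransporter of secreting epithelia, rose by 0.51 after ATG and by 0.48 after saline, and Clca1 rose by 0.86 after ATG (adjusted p = 0.0414) and had 0.83 after saline (adjusted p = 0.0568). The count table holds some older symbols, such as Lect1 in place of Cnmd, and its annotation was not given. Which Clca gene the symbol Clca1 stands for was therefore not checked, and its place among mucous cell genes is uncertain. Of 21 alternatives, 8 ended the call of Clca1 after ATG (highest adjusted p 0.156), 6 that of Muc5ac after saline (0.0975) and 6 that of Itln1 after saline (0.0751). With sex in the fit, 2 of the listed mucous cell genes were called lower after saline, and 1 was called higher after ATG.

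Of 24 secreted defence proteins listed, 9 were tested, and 1 rose and 4 fell after ATG, while 1 rose and 3 fell after saline, which is 55.6% and 44.4% called against 11.7% and 9.19% of all genes. The genes that fell in both were Lyz1 (-1.37 after ATG and -1.31 after saline) and Lyz2 (-0.75 and -0.71 in that order), lysozymes of macrophages and alveolar type 2 cells as well as airway glands, whose near-identical sequences make their counts uncertain. Wfdc2, a whey-acidic-protein family member of airway epithelium, rose by 0.51 after ATG and by 0.40 after saline. Lcn2, an iron-siderophore binder also made by neutrophils, fell by 1.20 after saline (adjusted p = 0.0366). The Bpifb1 relative Bpifb5 fell by 0.72 after ATG, and the secretoglobin Scgb1c1 by 1.05. Of 21 alternatives, 8 ended the call of Lcn2 after saline (highest adjusted p 0.164), 8 that of Wfdc2 after saline (0.151) and 7 that of Scgb1c1 after ATG (0.117). Reg3a, Reg3b and Reg3d, relatives of Reg3g, were listed but too low to test. Of 22 regulators of secretory fate tested, 2 rose and 0 fell after ATG by edgeR's test, and 2 rose and 1 fell after saline, which is 9.09% and 13.6% called, near the 11.7% and 9.19% of all genes. For the 0 after ATG, DESeq2 and limma-voom also gave 0 lower, and 1 gene was lower at an unadjusted p under 0.05 by edgeR's test. Stat3, which relays IL-6 and IL-22 family signals, rose by 0.46 after ATG and by 0.48 after saline, Cebpd by 1.03 after ATG and Hes1, a Notch target, by 0.37 after saline. Il22ra1, a receptor chain for IL-22, fell by 1.21 after saline. Of 21 alternatives, 12 ended the call of Hes1 (highest adjusted p 0.172) and 9 that of Il22ra1 (0.163). With sex in the fit, 1 regulator was called higher and 0 were called lower after saline. For ATG against saline and for the interaction 0 of the 66 genes tested in these 4 lists passed by edgeR's test, DESeq2 or limma-voom. By edgeR's test 3 of them in hyperoxia, 6 in room air and 8 for the interaction had an unadjusted p under 0.05. Of all genes, 5.69%, 6.02% and 2.95% did in that order.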

How the data were processed

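Lung RNA of 12 samples (4 groups of 3) was amplified to cDNA (Ovation RNA-Seq System V2), made into Nextera XT libraries and read as paired 75 bp reads, per the labels' protocols. The authors deposited raw counts per gene symbol, unpooled and not normalized. The submitters' processing notes name Bowtie2, Cufflinks, DESeq and mm10 (GRCm38), with no versions. The read counter, its strand setting and the annotation were not given in the sources used here. Amplified reads are not independent molecules. Totals were 14331749 to 20486735, and no replicate pair agreed within sampling noise (chi-square per degree of freedom 6.83 to 41.9).

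The 8 genes, the lists and the tests were chosen with earlier results of these data known. filterByExpr (minimum count 10, total 15) kept 15761 of 23478 genes, which hold 99.96% of counts. After TMM scaling, a model with a mean for each group was fitted to the 12 samples together, and contrasts were tested with edgeR's quasi-likelihood test (edgeR 4.0.16 in R 4.3.3), two-sided, with Benjamini-Hochberg adjustment over all genes tested and a threshold of 0.05. The fit was also run on counts simulated with its own estimates of spread, which does not check the model against these data. Log2 levels used a prior count of 2. DESeq2 1.42.0 and limma-voom (limma 3.58.1) were alternatives, with other scaling, no filter, a replicate block, sex or ciliated markers as a covariate and left-out libraries. The contrast averaged over both injections was added after the data were seen. From each list up to 4 genes per contrast with the smallest adjusted p and a mean of at least 1 CPM are named, and the other genes named from the lists were chosen after their values were seen. Deviations from group means of same-numbered libraries had r from -0.16 to 0.28, with 2 of 18 pairs over 0.1, so the numbers were not taken to pair samples. Positions come from GENCODE vM21 and promoters from RefSeq. One gene among those most like Bpifb1 is not reported here.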

Additional observations from a re-analysis of the deposited data

How the results depend on the processing

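Over 21 alternatives the call of Bpifb1 in hyperoxia after saline ended with sex as a covariate (0 genes of the 8 called) and without 1 library (0 to 2 called, the 2 with Scgb1a1 at -0.44 without ATG room air library 2), and a fit of only the samples of the groups compared called 2, adding Scgb1a1 (-0.46, adjusted p = 0.0242). After ATG, where 0 were called, no filter on low counts called 1 and sex as a covariate called 1 (Scgb1a1 -0.52 with adjusted p = 0.0305 and -0.56 with adjusted p = 0.0457), the ciliated covariate called 2 (Scgb1a1 -0.54, adjusted p = 0.0324, and Reg3g 1.48, adjusted p = 0.0303), and leaving out 1 library called 0 to 1 (Scgb1a1 -0.51 without saline room air library 3 and -0.67 without ATG room air library 3, Cyp2f2 without ATG room air library 2). The average over both injections called 2 to 3 of 8, Cyp2f2 joining with sex in the fit (0.21, adjusted p = 0.0442) and without ATG room air library 2 (0.27, adjusted p = 0.00541). The causes were not tested.

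The replicate number as a block called 1 gene after ATG, Reg3g (1.78, adjusted p = 0.00165), and turned Bpifb1 for ATG in hyperoxia to 0.088 and Cyp2a5 after saline to -0.15. It ended the calls of Cyp2a5 after ATG (adjusted p = 0.0511) and of Hes1 and Lcn2 after saline (0.0572 and 0.0599); over all genes 15 of 36 best matches shared the number, so the block does not show pairing.

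Other club cell genes called lower after saline were 1 with sex in the fit, and after ATG 1 in the fit of only the samples compared; leaving out 1 library gave 1 to 2 lower and 3 to 6 higher after saline, and 1 to 3 lower and 5 to 8 higher after ATG. Among all genes, 1295 to 1936 were called after saline (740 to 1700 without 1 library, lowest without saline room air library 3) and 1265 to 2346 after ATG (1150 to 2044 without 1 library, lowest without ATG room air library 3). Of the 9 within-group correlations, 5 passed by Spearman's rho, 0 without both heart-rich libraries and 0 to 8 without 1 library, where the smallest possible exact permutation p was 0.00231.

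Changes of sign, all in values that did not pass, were these. limma-voom gave -0.26 for Cyp2a5 in hyperoxia after saline, 0.15 for Bpifb1 under ATG in hyperoxia and 0.074 for Bpifa1 in the average. Without both heart-rich libraries the values were -1.03 for Cyp2a5 after saline, -0.12 for Muc5b and 0.12 for Lcn2 after ATG, 0.94 for Bpifb1 under ATG in hyperoxia and -0.014 for the Cyp2f2 interaction. The averages there were -0.39 for Scgb3a1, -0.17 for Scgb3a2 and -0.67 for Muc5b. With sex in the fit they were -0.37 for Cyp2a5 after saline, -0.044 for Scgb1a1 and -0.062 for Bpifa1 under ATG in hyperoxia, -0.092 for the Cyp2f2 interaction and 0.017 for the Bpifa1 average. With the ciliated covariate they were 0.31 for Bpifb1 under ATG in hyperoxia, 0.092 for Scgb3a2 and 0.29 for Muc5b under ATG in room air and -0.0025 for the Cyp2f2 interaction.

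Leaving out 1 library moved log2 fold changes that crossed 0 over these ranges: for hyperoxia after ATG Bpifa1 -0.11 to 1.24, Hes1 -0.061 to 0.13, Lcn2 -0.32 to 0.15 and Muc5b -0.12 to 2.36; for hyperoxia after saline Cyp2a5 -1.03 to 0.61, Muc5b -1.21 to 0.079, Reg3g -0.89 to 0.089 and Scgb3a2 -0.44 to 0.040. For ATG in hyperoxia the ranges were Bpifa1 -0.0070 to 0.27, Bpifb1 -0.36 to 0.78, Muc5b -0.34 to 1.62, Scgb1a1 -0.027 to 0.057 and Scgb3a1 -0.042 to 1.17, and for ATG in room air Cyp2f2 -0.11 to 0.11, Scgb1a1 -0.19 to 0.23 and Scgb3a2 -0.43 to 0.029. For the average they were Bpifa1 -0.38 to 0.30, Muc5b -0.25 to 0.99, Scgb3a1 -0.10 to 0.45 and Scgb3a2 -0.069 to 0.18, and for the interaction Cyp2f2 -0.013 to 0.20 and Scgb1a1 -0.22 to 0.20.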
